A study of Mus musculus with 24 samples.

Results

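The lesion effect was measured in the hypothalamus of mice given growth hormone (GH), 10 days after the pituitary stalk had been destroyed. The 3 libraries of lesioned mice (PEL_10d+GH) were compared with the 3 libraries of Sham mice (Sham+GH), chosen by their labels, which makes 6 of the 24 samples of the series. PEL is pituitary stalk electrical lesion, in which the link between hypothalamus and pituitary is burnt through with a cathodic current. Both groups received GH, the mice were male C57BL/6J, and the tissue taken held the supraoptic and paraventricular nuclei (SON and PVN). The labels put the PEL_10d+GH libraries at day 10 and the Sham+GH libraries at day 0, so that the lesion and the day of collection cannot be told apart from them, and neither the dose nor the schedule of GH is given in the sources used here. A further pair of comparisons was used only to show where this one differs, against the effect in mice without GH (PEL_10d and Sham) and against lesioned mice given GH at day 3 (PEL_3d+GH).

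The axons of magnocellular neurons, which make vasopressin and oxytocin, run through the stalk to the posterior pituitary, and releasing hormones of the hypothalamus reach the anterior pituitary through the portal vessels that run along it. When axons are cut, microglia, the resident macrophages of the brain, take up cell and myelin debris and digest it in lysosomes, astrocytes raise their intermediate filaments, and oligodendrocytes can form new myelin. GH acts through its receptor and STAT5 on genes such as Igf1, Cish and Socs2.

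Total counts ranged from 15649655 to 17453164 in the 6 libraries, and 14686 of 22274 genes passed the filter on low counts and were tested. Levels are given as normalized CPM, the counts scaled to library size after TMM normalization over the hypothalamic libraries, and changes as the log2 fold change of PEL_10d+GH over Sham+GH with its standard error (SE), from edgeR's quasi-likelihood test. A gene passed the test where the Benjamini-Hochberg adjusted p was under 0.05. The labels do not say that replicates came from separate mice, so p-values measure only the spread between these libraries, which may be technical. Libraries of the PEL_10d+GH group differed more from each other (count chi-square over its degrees of freedom, 10.2 to 19.7) than those of the Sham+GH group (3.19 to 5.38). PEL_10d+GH replicate 1 was the lowest of its group in 687 of the 967 genes that rose at least 2-fold, and replicate 3 the highest in 528. All 26 listed transcription factors of hypothalamic neurons and all 20 listed neuron genes passed the filter. Transthyretin (Ttr), the leading product of the choroid plexus, lay at 1.74 to 13.5 CPM in the 6 libraries.

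The lesion effect was broad, and its directions differed in size. Of the 14686 genes tested, 2598 were higher (17.7%) and 1947 lower (13.3%) in the PEL_10d+GH group, and the libraries of the groups did not overlap in 3483 higher (23.7%) and 3268 lower genes (22.3%). Among the genes that passed the test, 967 of the higher ones (37.2%) changed at least 2-fold, 369 at least 4-fold and 140 at least 8-fold, with a median log2 fold change of 0.76. Of the lower genes, 47 (2.41%) changed at least 2-fold, 7 at least 4-fold and 1 at least 8-fold, with a median of -0.30. The lowered genes lay higher in the Sham+GH group (median 93 CPM, against 11.5 CPM for the raised genes and 24.3 CPM for all genes tested) and spanned more of the genome (median 52.7 kb, against 22.5 and 25.4 kb). The median over all genes tested was -0.009. With any 1 library left out, 1998 to 2925 genes were higher. The lower genes numbered 1118 without Sham+GH replicate 1, 1148 without Sham+GH replicate 2 and 1268 without PEL_10d+GH replicate 2. When all hypothalamic groups were fitted together 1606 genes were higher and 351 lower, and when Sham replicate 1, a library without GH that stands apart from its group, was left out of that fit, 2614 and 1684.

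**Figure D1:**
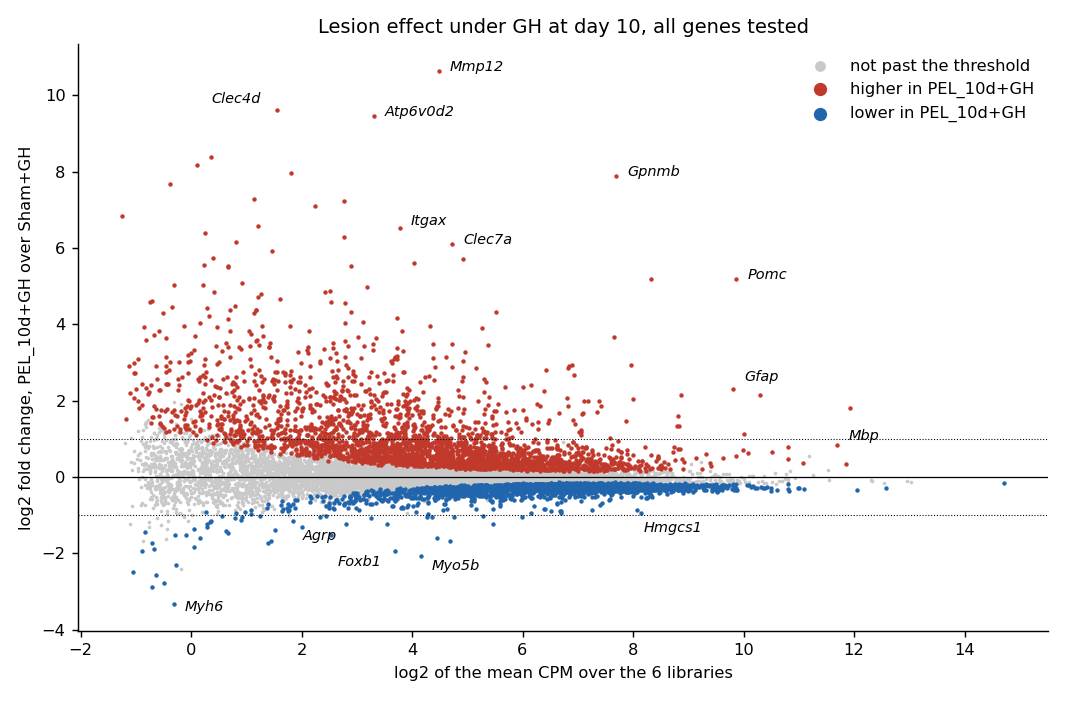
Each point is 1 of the 14686 genes tested, by the log2 of its mean CPM over the 6 libraries (x axis) and its log2 fold change of PEL_10d+GH over Sham+GH (y axis), with dotted lines at 2-fold. Raised genes (red) reach 10.65 on the log2 scale, and 47 of the 1947 lowered genes (blue) changed at least 2-fold.

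The largest rise was that of Mmp12. This gene, the elastase of macrophages, at chromosome 9 (GRCm38, as are all positions here) from 7344381 to 7369499, was at 7.66, 17 and 110 CPM in PEL_10d+GH replicates 1 to 3 and at 0.0644, 0 and 0 CPM in the Sham+GH libraries. PEL_10d+GH replicate 3 stood far above the others of its group. The Sham+GH group held 1 count in all against 131, 271 and 1919 counts, a ratio of 2246 (95% exact interval, for counting error only, 403 to 88739), with an adjusted p of 0.00203 in edgeR. Atp6v0d2, a subunit of a proton pump of macrophages and osteoclasts, was at 5.15, 15.7 and 38.4 CPM against 0, 0 and 0.0626 CPM, a ratio of 976 (95% exact interval 175 to 38598). Gpnmb, a transmembrane glycoprotein of lipid-laden macrophages on chromosome 6 from 49036546 to 49070929, was far better covered, with 178, 359 and 701 CPM against 1.93, 2.02 and 1.19 CPM. Its groups lay far apart, and it rose by 7.90 on the log2 scale (SE 0.60, adjusted p = 1.34e-05, edgeR). Itgax, the CD11c integrin, was at 14.9, 31 and 35.3 CPM against 0.193, 0.115 and 0.564 CPM (6.52, SE 0.48), and Cst7, the protease inhibitor cystatin F, at 11.3, 19.4 and 9.85 CPM against 0, 0.115 and 0.125 CPM (7.24, SE 0.49). Cd22, a receptor for sialic acid that restrains phagocytosis, had a ratio of 153 (95% exact interval 52 to 744). Genes with no count in any Sham+GH library were given as lower bounds against 3 counts over the group. Clec4d, a C-type lectin receptor, was at least 96.8-fold higher, Serpinf2 at least 40.6-fold, Cd300lf at least 35.5-fold and Mcoln2, a channel of endosomes and lysosomes, at least 25.2-fold. The other members of the 15 largest rises were Cd5l with a ratio of 344 (95% exact interval 61.4 to 13643), Mmp3 with 206 (36.6 to 8178), Mcoln3 with 112 (30.7 to 932), Cd200r4, whose reads can be shared with its paralogs, with 115 (20.3 to 4586), and Gm49339, which rose by 6.30 on the log2 scale.

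The list of disease-associated microglia, a state described around plaques and damaged myelin, rose almost as a whole. Of its 29 tested members, 27 were higher and 0 lower, with a median log2 fold change of 2.61. Clec7a, the receptor Dectin-1, was at 33.9, 60.6 and 62.2 CPM against 0.709, 0.923 and 0.626 CPM, and rose by 6.10 (SE 0.31, adjusted p = 1.55e-06, edgeR). Trem2, a lipid-sensing receptor of this state, was at 39.6, 63.9 and 65.2 CPM against 6.31, 5.42 and 5.57 CPM (3.29, SE 0.20), and its adaptor Tyrobp rose by 3.47 (SE 0.17). The groups lay apart in each of these genes. Apoe, the main lipid carrier of the brain, was at 4699, 7141 and 6333 CPM against 1736, 1665 and 1800 CPM and rose by 1.81 (SE 0.13, adjusted p = 9.51e-06, edgeR). Genes of resting microglia were raised too, with 16 of 18 higher and 0 lower (median 1.44). Cx3cr1, the fractalkine receptor, was at 134, 137 and 102 CPM against 31.9, 40.3 and 30.9 CPM (1.85, SE 0.13, adjusted p = 7.63e-06, edgeR), and Csf1r, the receptor for the survival factor CSF1, rose by 1.70. P2ry12 and Tmem119, which activated microglia usually lower, were at 33.1, 33.5 and 24.9 and 31.4, 26.9 and 24.8 CPM against 17.6, 21.1 and 17.9 and 14.4, 15.8 and 14 CPM, and rose by 0.69 (SE 0.13) and 0.91 (SE 0.11). In these bulk samples more cells of a type and more RNA per cell cannot be told apart. Of 10 genes of border macrophages, which live in the meninges and around vessels, 6 were higher (median 1.15), but 2 without PEL_10d+GH replicate 2 and 2 without Sham+GH replicate 1. Stab1, a scavenger receptor of the list, was at 32.9, 51.8 and 58 CPM against 12.4, 16.1 and 13.1 CPM (1.78, SE 0.19), and Mrc1, the mannose receptor, at 8.19, 15.3 and 17.5 CPM against 5.28, 9.12 and 4.57 CPM (1.11, SE 0.30, adjusted p = 0.0199, edgeR), a call lost without PEL_10d+GH replicate 2 or 3 or Sham+GH replicate 1 or 3 (adjusted p 0.0623 to 0.0842, edgeR).

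**Figure D2:**
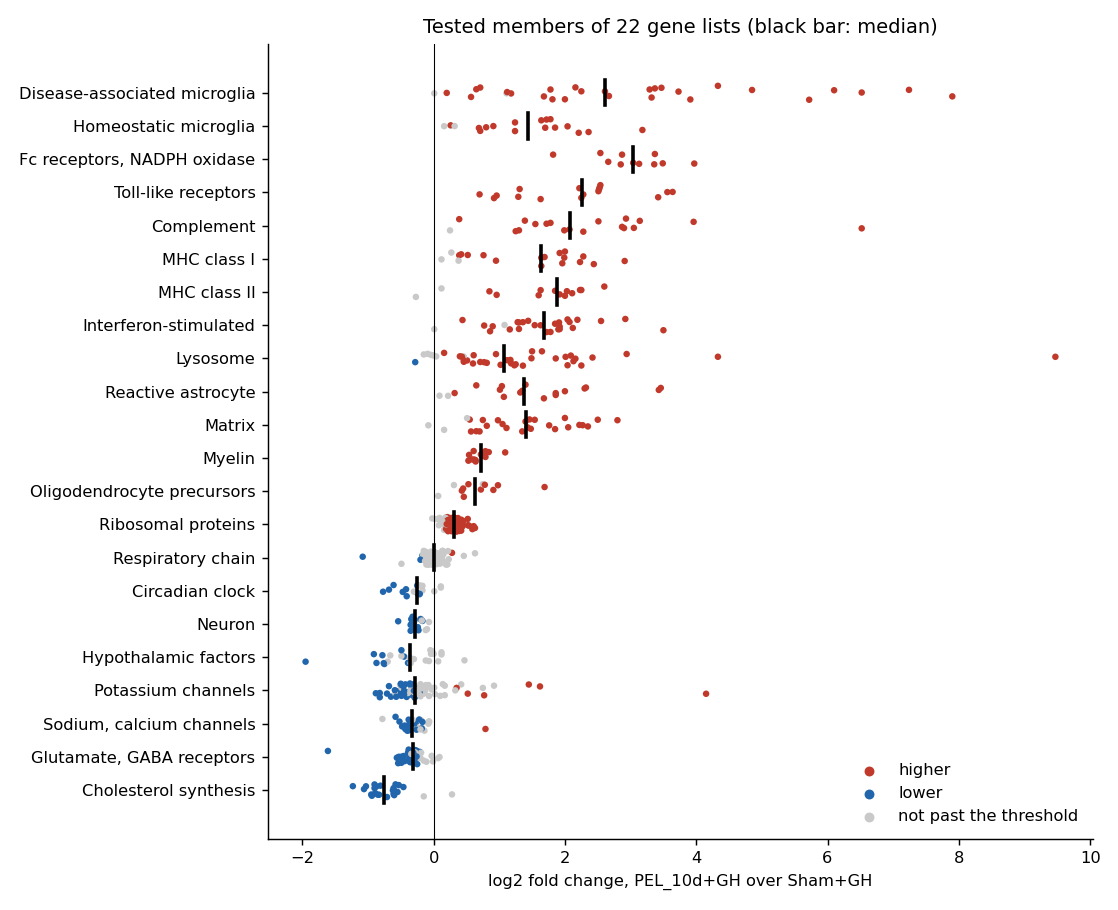
Each point is a tested member of 1 of 22 gene lists, by its log2 fold change of PEL_10d+GH over Sham+GH (x axis), coloured by whether it passed the edgeR test at an adjusted p of 0.05, with a black bar at the median. Microglial, immune, lysosomal, astrocyte and matrix lists lie mostly to the right of 0, and the neuronal and cholesterol lists mostly to its left.

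Genes with which phagocytes recognise and kill rose without an exception in both lists of them. All 11 Fc receptor and NADPH oxidase genes tested were higher (median 3.04), as were all 16 Toll-like receptors and partners tested (median 2.26). Fcgr2b, the inhibitory Fc receptor, was at 39.3, 52.8 and 53.6 CPM against 3.29, 5.54 and 4.07 CPM and rose by 3.49 (SE 0.18, adjusted p = 1.65e-06, edgeR). Cd180, a Toll-like co-receptor, rose by 3.64 (SE 0.19) and Tlr7, the receptor for single-stranded RNA, by 2.53 (SE 0.18). In the complement list 18 of 19 were higher (median 2.07). The chains of C1q, which tag synapses and debris, moved by like amounts. C1qa was at 183, 231 and 181 CPM against 27.2, 28.8 and 25.2 CPM, and C1qa, C1qb and C1qc rose by 2.87, 2.93 and 2.90 (SE 0.10, 0.11 and 0.11). C3, on which the complement pathways meet, was at 38.1, 78.5 and 45.4 CPM against 5.54, 7.44 and 6.51 CPM (3.05, SE 0.27). Of 15 chemokines tested 10 were higher and 1 lower. Ccl3 (4.85), Ccl6 (3.32), Ccl9 (2.61) and Cxcl16 (2.64), all made by myeloid cells, rose. Cx3cl1, the fractalkine made by neurons, was at 243, 209 and 204 CPM against 271, 262 and 254 CPM and fell by 0.26 (SE 0.07), a call lost without PEL_10d+GH replicate 2 (adjusted p = 0.0608, edgeR) or Sham+GH replicate 1 (0.0673). Among cytokines of injury and their receptors 14 of 17 were higher and 0 lower (median 1.5), with Tgfb1 at 2.17 (SE 0.15) and its receptor Tgfbr2 at 1.70 (SE 0.09). Of 15 genes for the uptake of dying cells 9 were higher, among them the receptor Mertk (1.02) and its bridging protein Pros1 (1.13).

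Lysosomal genes rose with them. Of 40 enzymes and membrane proteins tested, 33 were higher and 1 lower (median 1.07). Many lysosomal genes are known to be switched on by TFEB and related factors, which bind an E-box with the letters CACGTG. RefSeq promoters of GRCm38.p6, from 250 bases before to 50 after a start, were at hand for 31 of the 40 members, and 12 of them (38.7%) held these letters, against 11.2% of the 11421 tested genes with a promoter. Both strands were searched, and the letters read the same on both. A single match is shown in capitals, with lower-case flanks on the strand of the gene, for the 3 matching members with the lowest p, because these raised enzymes carry the list's known motif, and the stretch of Ctsa holds another match in lower case.
Ctsd, chr7:142387885-142387960, minus strand: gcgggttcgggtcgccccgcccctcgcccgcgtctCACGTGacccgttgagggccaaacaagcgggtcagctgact
Ctsa, chr2:164833743-164833818, plus strand: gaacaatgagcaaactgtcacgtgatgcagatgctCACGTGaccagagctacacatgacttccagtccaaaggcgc
Lgmn, chr12:102439101-102439176, minus strand: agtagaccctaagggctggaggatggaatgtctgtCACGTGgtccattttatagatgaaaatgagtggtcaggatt
Ctsd, the aspartic protease cathepsin D, was at 1575, 2215 and 2350 CPM against 460, 465 and 453 CPM and rose by 2.16 (SE 0.13, adjusted p = 3.31e-06, edgeR). Ctsa, the protective protein of lysosomal sialidase, rose by 1.23 (SE 0.08), and Lgmn, an asparaginyl endopeptidase, by 0.95 (SE 0.08). Ctss (2.94), Ctsz (2.25) and Laptm5 (2.42), which are mostly made by myeloid cells, changed more than the median. Gaa, the lysosomal glucosidase, was the member that fell, with 1179, 1026 and 993 CPM against 1331, 1337 and 1208 CPM (-0.28, SE 0.07), a call lost without PEL_10d+GH replicate 2 (adjusted p = 0.0665, edgeR), Sham+GH replicate 1 (0.0788) or Sham+GH replicate 2 (0.0734). Gaa is also among the 12 members that hold the letters. So are Atp6v0d1, Gla, Mcoln1 and Sgsh, which did not pass the test (adjusted p 0.179, 0.108, 0.981 and 0.756, edgeR). The other holders, Ctsl, Glb1, Lamp1 and Naglu, were higher, as were the members shown. Whether the letters go with the rise was not tested. A match is a description of the sequence and not a bound site.

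Antigen presentation and interferon-stimulated genes were raised by similar amounts. Of 19 genes of MHC class I presentation 16 were higher (median 1.64), and of 14 of class II 12 were higher (median 1.88), with 0 lower in both. B2m, the shared light chain of class I, was at 267, 283 and 255 CPM against 63.8, 66.4 and 70.8 CPM and rose by 2.0 (SE 0.06, adjusted p = 1.56e-07, edgeR). The heavy chains H2-D1 (1.99) and H2-K1 (1.92), whose reads can be shared, moved with it. Cd74, the invariant chain of class II, was at 59.8, 49.9 and 65 CPM against 14.8, 20.4 and 8.39 CPM (2.0, SE 0.23), and the costimulator Cd86 rose by 2.60 (SE 0.17). Among 28 interferon-stimulated genes 26 were higher and 0 lower (median 1.67). Interferon acts through a response element with the core letters GAAANNGAA. Of the 18 members with a promoter 11 (61.1%) held these letters on either strand, against 8.62% of the 11421 genes, and the 3 matching members with the lowest p are shown with a single core in capitals. Each of these stretches holds another match of the letters that is not marked, which overlaps the marked core in Bst2 and Oas1a and follows it in Ifitm3.
Bst2, chr8:71537553-71537631, minus strand: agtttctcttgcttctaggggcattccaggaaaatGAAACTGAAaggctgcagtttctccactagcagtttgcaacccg
Oas1a, chr5:120907496-120907574, minus strand: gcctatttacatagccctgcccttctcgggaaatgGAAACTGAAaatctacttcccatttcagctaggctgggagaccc
Ifitm3, chr7:141010699-141010777, minus strand: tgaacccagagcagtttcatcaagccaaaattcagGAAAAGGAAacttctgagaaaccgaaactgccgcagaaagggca
Oas1a, a sensor of double-stranded RNA in which the core begins 14 bases before the start, was at 4.86, 5.35 and 4.58 CPM against 0.515, 1.04 and 0.939 CPM and rose by 2.55 (SE 0.26, adjusted p = 9.65e-05, edgeR). Bst2, the tetherin that holds virions at the membrane, was at 10.6, 10.9 and 8.25 CPM against 2.06, 2.54 and 2.63 CPM (2.04, SE 0.18). Neither gene overlapped between the groups. Ifitm3, which blocks the entry of viruses, rose by 1.30 (SE 0.15), and Parp14 and Lgals3bp by 1.90 and 1.54.

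Cholesterol synthesis and uptake was the list that fell almost as a whole. Of its 24 tested genes 22 were lower and 0 higher, with a median of -0.76, and 21 or 22 were lower with any 1 library left out. Hmgcs1, the enzyme that makes HMG-CoA, was at 186, 199 and 183 CPM against 354, 348 and 335 CPM and fell by 0.87 on the log2 scale (SE 0.05, adjusted p = 4.02e-06, edgeR). The spread within each group was small beside the gap between them. Idi1, an isomerase of the same path, was at 40.1, 40.8 and 42.3 CPM against 86.4, 82.4 and 88.1 CPM and fell by 1.06 (SE 0.06, adjusted p = 2.31e-06, edgeR). Ebp (0.28, adjusted p = 0.0552, edgeR) and Pmvk (-0.15, adjusted p = 0.191, edgeR) did not pass the test, and Ebp was higher without PEL_10d+GH replicate 1 (adjusted p = 0.0296). The core of the sterol response element that SREBP factors bind was searched as TCACNCCAC on both strands. It was in 1 of the 17 members with a promoter (5.88%), against 1.4% of the 11421 genes, and is shown in capitals.
Hmgcs1, chr13:119690179-119690257, plus strand: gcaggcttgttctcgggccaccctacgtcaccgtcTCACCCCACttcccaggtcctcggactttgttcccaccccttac
The list of lipid-handling macrophages went the other way, with 16 of 18 higher and 1 lower (median 2.0). Abca1, which exports cholesterol from cells, was at 172, 240 and 201 CPM against 64.9, 69.5 and 60.6 CPM and rose by 1.65 (SE 0.11, adjusted p = 6.12e-06, edgeR). Soat1, which stores cholesterol as esters, rose by 0.77 (SE 0.07). Nceh1, a cholesteryl ester hydrolase, fell by 0.17 (SE 0.05), a call kept only without PEL_10d+GH replicate 3 when 1 library was left out. Iron and heme genes were mostly raised, with 14 of 16 higher and 1 lower. Ftl1, the light chain of ferritin, was at 487, 777 and 1034 CPM against 183, 169 and 170 CPM (2.14, SE 0.21), and Hmox1, which breaks heme down, rose by 2.29 (SE 0.23). Tfrc, the transferrin receptor that cells lower when iron is ample, was at 66.8, 61.3 and 54.5 CPM against 113, 106 and 107 CPM and fell by 0.83 (SE 0.07, adjusted p = 3.74e-05, edgeR).

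Most genes of astrocyte reactivity rose. Of 18 reactive genes 16 were higher and 0 lower (median 1.37). Gfap, the intermediate filament of astrocytes, was at 1188, 2012 and 1303 CPM against 325, 299 and 278 CPM and rose by 2.32 (SE 0.17, adjusted p = 1.33e-05, edgeR). Replicate 2 was the highest here. Serpina3n (1.86), the oncostatin M receptor Osmr (1.86) and the filament Vim (1.68) rose as well. Of 15 genes of astrocyte function 4 were higher (26.7%, against 17.7% of all genes) and 2 lower (13.3%, the share of all genes). Aqp4, the water channel of astrocyte endfeet, was at 557, 954 and 530 CPM against 252, 220 and 199 CPM (1.60, SE 0.20), and S100b (0.66), Sox9 (0.58) and the connexin Gja1 (0.58) rose. Slc6a11, a GABA transporter, was at 932, 847 and 719 CPM against 1069, 1000 and 1101 CPM (-0.34, SE 0.09), a call lost without Sham+GH replicate 1 (adjusted p = 0.0595, edgeR) or 3 (0.0592), and Fgfr3 fell by 0.26 (SE 0.06). Matrix genes were raised in 24 of 27 cases (median 1.40). Col3a1, a fibrillar collagen, was at 88.3, 139 and 223 CPM against 24, 26.8 and 13.8 CPM and rose by 2.80 (SE 0.32, adjusted p = 0.000195, edgeR), with Col1a1 (2.35) and the basement membrane collagens Col4a1 (1.43) and Col18a1 (2.27). Among metalloproteinases and their inhibitors 12 of 19 were higher, with Mmp2 (2.13), Mmp19 (2.49) and Adam8 (4.57) beside Mmp12. Of 15 endothelial genes 7 were higher and 0 lower (median 0.29), among them Cldn5, a tight junction protein, at 35.7, 29.6 and 24.1 CPM against 16, 16.6 and 9.96 CPM (1.07, SE 0.19). Of 12 meningeal genes 5 were higher, but 11 without PEL_10d+GH replicate 1 and 3 without Sham+GH replicate 3.

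All 16 myelin genes tested were higher, from 0.53 to 1.09 with a median of 0.73. Mbp, the myelin basic protein, was at 4273, 4486 and 4044 CPM against 2413, 2186 and 2545 CPM and rose by 0.84 (SE 0.07, adjusted p = 2.55e-05, edgeR). The groups did not overlap in any of the 16. Cldn11, the tight junction protein of myelin, rose most, by 1.09 (SE 0.06). In the fit of all groups with Sham replicate 1, a library in which myelin genes lay high, 6 of the 16 passed, and without it 16. In the list of oligodendrocyte precursors and early oligodendrocytes 9 of 12 were higher and 0 lower (median 0.62). Enpp6, a marker of oligodendrocytes that are just forming, was at 25.9, 29.6 and 29.2 CPM against 8.31, 8.77 and 9.14 CPM and rose by 1.69 (SE 0.10, adjusted p = 3.29e-06, edgeR). Gpr17 (0.91) and Bcas1 (0.72), which mark cells on the way to maturity, rose. Pdgfra, the receptor of the precursors, was at 105, 120 and 109 CPM against 104, 107 and 108 CPM (0.07, adjusted p = 0.43, edgeR).

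Neuronal genes were lowered by small amounts. Of 20 general neuron genes 15 were lower and 0 higher, with a median of -0.29, and without Sham+GH replicate 3 the count was 9. Slc17a6, the vesicular glutamate transporter of hypothalamic neurons, was at 239, 260 and 240 CPM against 407, 321 and 348 CPM and fell by 0.54 (SE 0.08, adjusted p = 0.00115, edgeR). Eno2, a neuronal enolase, was at 665, 636 and 629 CPM against 806, 789 and 826 CPM (-0.33, SE 0.05), and the neurofilament Nefh and the RNA-binding protein Elavl4 fell by 0.34 and 0.35. Lists of receptors and channels held more lower than higher genes. Of 39 glutamate and GABA receptor subunits 29 were lower and 0 higher (median -0.31), of 35 sodium and calcium channel subunits 23 were lower and 1 higher (median -0.33), and of 79 potassium channel subunits 36 were lower and 6 higher (median -0.28). Scn2a, a sodium channel of the axon initial segment, was at 283, 265 and 261 CPM against 383, 374 and 371 CPM and fell by 0.48 (SE 0.05, adjusted p = 0.000125, edgeR). The AMPA receptor subunit Gria2 fell by 0.39 (SE 0.05), and Kcnma1, the calcium-activated potassium channel, by 0.50 (SE 0.06). The potassium channel subunits that rose were Kcnj15 (4.15), Kcnk5 (1.62), Kcnk6 (1.45), Kcns1 (0.77), Kcnj2 (0.35) and Kcnk13 (0.52), a channel of microglia. The calls of Kcnj2, Kcns1 and Kcnk5 were lost without 5, 4 and 3 of the 6 libraries in turn, Sham+GH replicates 1 and 3 among them for all 3, with adjusted p of up to 0.155, 0.193 and 0.0608 (edgeR). Cacna2d4 was the calcium channel subunit that rose, with 3.92, 4.91 and 3.38 CPM against 2.06, 2.48 and 2.5 CPM (0.79, SE 0.22), a call lost without PEL_10d+GH replicate 2 (adjusted p = 0.091, edgeR), Sham+GH replicate 1 (0.0784) or Sham+GH replicate 2 (0.0523). The counts moved with single libraries, to 15 lower sodium and calcium channel subunits without Sham+GH replicate 2, and to 19 and 22 lower potassium channel subunits without Sham+GH replicates 2 and 1. In the fit of all groups with Sham replicate 1, 2 neuron genes, 4 receptor subunits, 2 sodium and calcium channel subunits and 9 potassium channel subunits were lower, and without that library 12, 28, 18 and 30.

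Among transcription factors of hypothalamic neurons 9 of 26 were lower and 0 higher (median -0.36), and in the fit of all groups 0 were lower with Sham replicate 1 and 5 without it. Foxb1, a factor of the mammillary bodies on chromosome 9 from 69757710 to 69760940, was at 5.03, 4.4 and 6.47 CPM against 24.4, 19.2 and 18 CPM and fell by 1.95 (SE 0.17, adjusted p = 2.96e-05, edgeR). Nkx2-1, a factor of the ventral hypothalamus, was at 16.6, 15.8 and 17.3 CPM against 33.7, 30.2 and 26.9 CPM (-0.87, SE 0.10), and Lhx1 and Bsx fell by 0.76 and 0.75. The groups did not overlap in these genes, and in the fit of all groups with Sham replicate 1 the adjusted p was 0.0735 for Foxb1, 0.264 for Nkx2-1, 0.116 for Lhx1 and 0.417 for Bsx (edgeR), while without that library all passed. Grm2, a presynaptic glutamate receptor, was at 11.1, 8.8 and 12.1 CPM against 40.1, 28.2 and 30.1 CPM and fell by 1.61 (SE 0.16, adjusted p = 6.33e-05, edgeR). Myo5b, a motor of membrane recycling, was at 5.79, 5.79 and 9.1 CPM against 36.7, 23.8 and 26.6 CPM and fell by 2.07 (SE 0.21), and Cpne9 by 1.68 (SE 0.18). In the fit of all groups with Sham replicate 1 the adjusted p of Grm2 was 0.062 and that of Myo5b 0.116 (edgeR). In the mice without GH, Foxb1 was at 4.21, 10.7 and 13.9 CPM in the PEL_10d libraries against 9.27 and 3.58 CPM in Sham replicates 2 and 3, and Grm2 at 7.17, 20.1 and 21.4 CPM against 9.2 and 6.45 CPM. The Sham+GH libraries lay above those Sham libraries in both genes. Many of the other largest falls had low levels. Myh6 (-3.33), Nxf3 (-2.88), Krt73 (-2.77), Nppa (-2.58), Myh8 (-2.30), Gm28285 (-1.84), Mypn (-1.68), Myh4 (-1.53) and P2rx2 (-1.53) lay under 6 CPM in every library of both groups. Without single libraries Gm28285 (any 1 but PEL_10d+GH replicate 3), Myh4 (PEL_10d+GH replicate 1 or 2, or Sham+GH replicate 1 or 3) and Myh8 (Sham+GH replicate 2) lost their calls. The cardiac muscle genes Myh6 and Nppa were at 0.292, 0.126 and 0 and 0.175, 0.252 and 0.115 CPM against 2.13, 1.21 and 1.06 and 1.35, 1.21 and 0.751 CPM. Rax, which marks tanycytes, the ependymal cells of the floor of the third ventricle, was at 2.16, 0.44 and 1.03 CPM against 5.22, 3.52 and 3.44 CPM (-1.73, SE 0.42), and lost its call without Sham+GH replicate 1 (adjusted p = 0.0549, edgeR). In the tanycyte list 3 of 14 were lower and 1 higher (21.4% and 7.14%, against 13.3% and 17.7% of all genes), and in the list of ciliated ependyma 4 of 10 were higher, but 1 without PEL_10d+GH replicate 3, Sham+GH replicate 1 or Sham+GH replicate 3.

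**Figure D3:**
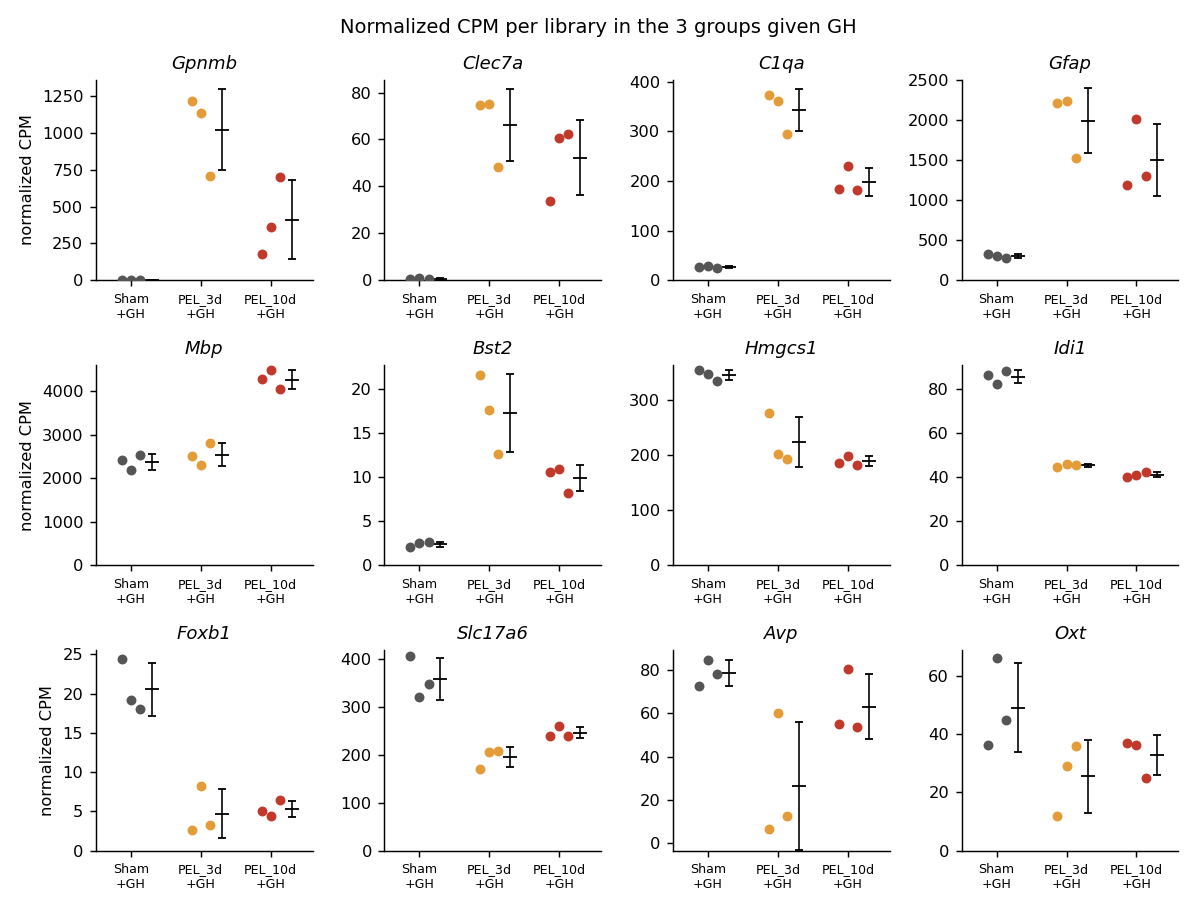
Normalized CPM (y axes) of 12 genes in each library of the 3 groups given GH, with the mean and SD (n = 3) beside the points. The PEL_10d+GH and Sham+GH libraries do not overlap in the 10 panels from Gpnmb to Slc17a6 and overlap in Avp and Oxt.

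The hormones of the magnocellular neurons did not pass the test. Avp, the vasopressin precursor on chromosome 2 from 130580620 to 130582554, was at 54.9, 80.3 and 53.7 CPM against 72.7, 84.8 and 78.3 CPM (-0.32, adjusted p = 0.107, edgeR, SE 0.14). Oxt, the oxytocin precursor beside it from 130576173 to 130577054, was at 36.9, 36.3 and 24.8 CPM against 36.3, 66.1 and 44.8 CPM (-0.59, adjusted p = 0.0547, edgeR, SE 0.21). The groups overlapped in both genes and both calls turned on single libraries. Avp was lower without PEL_10d+GH replicate 2 (-0.54, adjusted p = 0.00161, edgeR) and in DESeq2 (adjusted p = 0.0449), and Oxt was lower without PEL_10d+GH replicate 1 (-0.69, adjusted p = 0.0383, edgeR) or Sham+GH replicate 1 (-0.77, adjusted p = 0.0253). Over all alternatives the adjusted p ran from 0.00161 to 0.857 for Avp and from 0.0253 to 0.691 for Oxt. Per length, the mean FPKM of Avp was 110 against 135 and that of Oxt 61.3 against 90.6. Of the 10 genes of this list, which holds peptides and enzymes of the same cells, 3 were lower and 1 higher. These are 30% and 10%, against 13.3% and 17.7% of all genes. In the fit of all groups 1 was lower and 0 higher with Sham replicate 1, and 3 and 0 without it. Cck, the cholecystokinin precursor, was at 8.31, 5.41 and 7.16 CPM against 19.8, 14.1 and 15.3 CPM and fell by 1.23 (SE 0.18, adjusted p = 0.000712, edgeR). Rgs4 fell by 0.58 and Nos1, the neuronal nitric oxide synthase, by 0.50. Gal, the galanin precursor, rose by 0.24 (SE 0.07), a call kept only without PEL_10d+GH replicate 1 when 1 library was left out.

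Of 11 releasing hormones and genes of dopamine neurons 1 passed the test as higher and 0 as lower (9.09% and 0%, against 17.7% and 13.3% of all genes). Crh, the corticotropin-releasing hormone, was at 5.32, 4.53 and 3.95 CPM against 0.773, 1.85 and 1.5 CPM and rose by 1.73 (SE 0.29, adjusted p = 0.00169, edgeR). Ghrh, which releases GH, was at 3.98, 2.96 and 3.44 CPM against 3.54, 4.5 and 4.07 CPM (-0.22, adjusted p = 0.417, edgeR). Sst, which inhibits GH release, was at 113, 89.4 and 100 CPM against 89, 121 and 108 CPM (-0.07, adjusted p = 0.668, edgeR). Both inhibitor and releaser of GH overlapped between the groups. Trh, which releases thyrotropin, was at 98.9 to 129 CPM against 60.4 to 120 CPM (0.36, adjusted p = 0.193, edgeR, and higher without Sham+GH replicate 3 with 0.0297), and Th, the rate-limiting enzyme of dopamine synthesis, at 23.2 to 36.9 CPM against 30.5 to 42.3 CPM (-0.25, adjusted p = 0.293, edgeR). Among feeding and arousal peptides 3 of 14 were lower and 1, Pomc, higher (21.4% and 7.14%, against 13.3% and 17.7% of all genes). The lower ones numbered 5 without PEL_10d+GH replicate 3, 0 in the fit of all groups and 2 in that fit without Sham replicate 1. Agrp, which drives feeding, was at 3.69, 3.08 and 3.15 CPM against 9.34, 6 and 5.13 CPM and fell by 1.04 (SE 0.23, adjusted p = 0.00766, edgeR), a call lost in the fit of all groups with Sham replicate 1 (0.452) and without it (0.141). Npy of the same neurons was at 27.4, 20.7 and 33.3 CPM against 44.8, 29.8 and 37.4 CPM (-0.46, adjusted p = 0.0742, edgeR) and was lower without PEL_10d+GH replicate 3 (adjusted p = 0.0224) or Sham+GH replicate 2 (0.0383). The peptide precursors Tac1 and Adcyap1 fell by 0.46 (SE 0.07) and 0.40 (SE 0.09). Of 12 genes that process and sort prohormones 4 were lower and 1 higher (33.3% and 8.33%, against 13.3% and 17.7% of all genes). Without PEL_10d+GH replicate 3, 7 were lower. In the fit of all groups 0 were lower and 0 higher with Sham replicate 1, and 4 and 1 without it. The convertase Pcsk1 and the amidating enzyme Pam fell by 0.32 and 0.31, and the carboxypeptidase Cpe rose by 0.38.

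Feedback targets of the GH receptor did not pass the test between these groups, both of which had received GH. Cish, a feedback inhibitor, was at 6.38, 4.78 and 10.7 CPM against 15.2, 7.79 and 3.76 CPM (-0.28, adjusted p = 0.659, edgeR, SE 0.43), and Socs2, another, at 9.42, 4.97 and 18.4 CPM against 14.1, 13.4 and 6.39 CPM (-0.04, adjusted p = 0.952, edgeR, SE 0.41). Both varied widely within each group and overlapped between them. Ghr, the receptor, was at 23, 23.3 and 25.1 CPM against 27.2, 31.6 and 25.5 CPM (-0.24, adjusted p = 0.0777, edgeR). Stat5b, which carries its signal, was at 77.6 to 90.4 CPM against 88.4 to 99.1 CPM (-0.20, adjusted p = 0.0551, edgeR) and was lower without PEL_10d+GH replicate 1 (adjusted p = 0.00668). Of the 23 genes of the GH and IGF axis 7 were higher and 3 lower (30.4% and 13%, against 17.7% and 13.3% of all genes), and with 1 library left out 4 to 7 were higher and 1 to 4 lower. Igf1 was at 22.1, 48.4 and 46.6 CPM against 11.4, 14.6 and 7.95 CPM and rose by 1.78 (SE 0.29, adjusted p = 0.00148, edgeR). Microglia are a known source of Igf1. The binding proteins Igfbp7 (1.36) and Igfbp5 (0.65) rose, and the receptor Igf1r was at 55.2 to 61.5 CPM against 59.9 to 63.2 CPM (-0.06, adjusted p = 0.533, edgeR). Ghsr, the ghrelin receptor, was at 6.14, 4.97 and 7.39 CPM against 14.4, 11.7 and 13 CPM and fell by 1.07 (SE 0.16, adjusted p = 0.000828, edgeR), and the prolactin receptor Prlr and the adaptor Irs1 fell by 0.33 and 0.32. The call of Prlr was lost without PEL_10d+GH replicate 2 or Sham+GH replicate 1 or 2 (adjusted p 0.0617 to 0.0782, edgeR), and that of Irs1 without PEL_10d+GH replicate 3 (0.0555) or Sham+GH replicate 1 (0.0849). Without Sham+GH replicate 3 4 genes of this list were higher, and without Sham+GH replicate 1 1 was lower.

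Most ribosomal protein genes rose by small amounts. Of 80 ribosomal protein genes tested 64 were higher and 0 lower, by a median of 0.31, and 42 were higher without Sham+GH replicate 2. In the fit of all groups 28 were higher with Sham replicate 1 and 58 without it. Rplp0, of the stalk of the large subunit, was at 260, 279 and 316 CPM against 194, 189 and 178 CPM (0.61, SE 0.07). Of 81 respiratory chain genes 1 was higher and 3 were lower (1.23% and 3.7%, against 17.7% and 13.3% of all genes, with a median of 0.00), and with 1 library left out 0 to 2 were higher and 1 to 3 lower. Clock genes were lowered in 9 of 17 cases and raised in 0. Nr1d1, the repressor REV-ERB alpha, was at 48, 50.7 and 50.8 CPM against 78.7, 75.8 and 74.5 CPM and fell by 0.61 (SE 0.06, adjusted p = 5.74e-05, edgeR), and Dbp, Hlf and Nr1d2 fell by 0.77, 0.41 and 0.42. The hour of collection is not given in the sources used here. Of 18 cell cycle genes 6 were higher and 0 lower. Mki67, a marker of dividing cells, was at 4.5, 3.71 and 4.7 CPM against 0.451, 0.981 and 0.689 CPM (2.58, SE 0.29). Of 16 genes of axon injury and regrowth 8 were higher and 0 lower. Sprr1a was at 4.1, 6.16 and 6.07 CPM against 0.193, 0 and 0.0626 CPM, and Atf3, a factor switched on in cut neurons, at 9.01, 19.6 and 25.4 CPM against 1.48, 1.39 and 1.94 CPM (3.49, SE 0.38). Both lay apart from the Sham+GH libraries in every lesioned library. Of 19 glucocorticoid-responsive genes 4 were higher and 4 lower (21.1% and 21.1%, against 17.7% and 13.3% of all genes), and leaving out 1 library gave 2 to 5 higher and 1 to 4 lower. Of 18 immediate early genes 5 were higher and 1 lower (27.8% and 5.56%, against 17.7% and 13.3% of all genes). However, 1 or 2 were higher with any 1 library other than PEL_10d+GH replicate 1 left out. In the fit of all groups 0 were higher, both with and without Sham replicate 1. Among markers of neighbouring regions the counts were 1 higher and 1 lower of 11 for hippocampus, 0 and 1 of 10 for striatum, 3 and 2 of 10 for thalamus (30% and 20%) and 1 and 1 of 9 for choroid plexus, where the shares of all genes were 17.7% and 13.3%. With 1 library left out the counts were 0 to 2 higher and 0 to 2 lower for hippocampus, 0 to 1 and 0 to 2 for striatum, 3 and 1 to 2 for thalamus, and 0 to 2 and 1 for choroid plexus. Prkcd of the thalamus list, a protein kinase C, was at 24.5, 27.2 and 28.2 CPM against 7.99, 9.06 and 8.39 CPM and rose by 1.65 (SE 0.10, adjusted p = 4.29e-06, edgeR), a call lost in the fit of all groups with Sham replicate 1 (0.119) and kept without it.

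Markers of blood and of the pituitary differed between the libraries. All 5 red cell genes were higher (median 2.49), with Hbb-bs at 58.3, 18.6 and 13.4 CPM against 6.38, 4.62 and 5.13 CPM, where reads of the paired globin genes can be shared. The summed level of the list was 135, 41.2 and 28.3 CPM in PEL_10d+GH replicates 1 to 3 and 11.1 to 14 CPM in the Sham+GH libraries, and 3, 3 and 2 of the 5 passed without Sham+GH replicate 1, 2 and 3. Of the 25 genes of blood leukocytes 10 passed the filter and 7 were higher, and their summed level was 44.2, 26.9 and 24 CPM against 5.99 to 8.54 CPM. S100a9, a neutrophil protein, was at 9.24, 2.89 and 3.61 CPM against 0.58, 0.519 and 0.814 CPM (3.03, SE 0.49). The red cell and leukocyte sums were highest in replicate 1, in which most of the raised genes were lowest. Pomc, the precursor of ACTH and MSH, which is made in the arcuate nucleus and in the pituitary, was at 23.9, 30 and 5408 CPM against 53, 59.1 and 36.4 CPM. It passed the test as higher (5.20, SE 1.70, adjusted p = 0.0415, edgeR) through replicate 3. Without that library it was lower (-0.88, adjusted p = 0.00683, edgeR), and without Sham+GH replicates 1, 2 and 3 in turn the adjusted p was 0.126, 0.118 and 0.139 in edgeR. In the same replicate Oacyl was at 95.9 CPM and Pax7, a factor of the intermediate lobe, at 6.99 CPM, and the other libraries of both groups lay at 0.351 to 0.814 and 0.0629 to 0.761 CPM. Both were named after their values were seen. Of the 9 anterior pituitary genes 4 passed the filter and 2 were higher, and their summed level was 6.96, 21.1 and 65.6 CPM against 8.71 to 13.4 CPM. Gh itself was at 0.761, 6.54 and 4.24 CPM against 0.773, 0.173 and 0.125 CPM (3.43, SE 0.80, adjusted p = 0.00951, edgeR), a call lost in the fit of all groups with Sham replicate 1 (0.175) and without it (0.0786). Prl, prolactin, was at 0.117, 4.46 and 28.5 CPM against 0.837, 0.231 and 0.0626 CPM (4.88, SE 1.40) and lost its call without PEL_10d+GH replicate 3 (adjusted p = 0.112, edgeR) or Sham+GH replicate 1, 2 or 3 (0.0617, 0.0891 and 0.0971). The groups overlapped in all 3 hormone genes. With PEL_10d+GH replicate 3 left out 2131 genes were higher and 1314 lower in all, and with replicate 1 left out 2925 and 2451, and the part of blood and pituitary RNA in the other results was not tested beyond that.

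**Figure D4:**
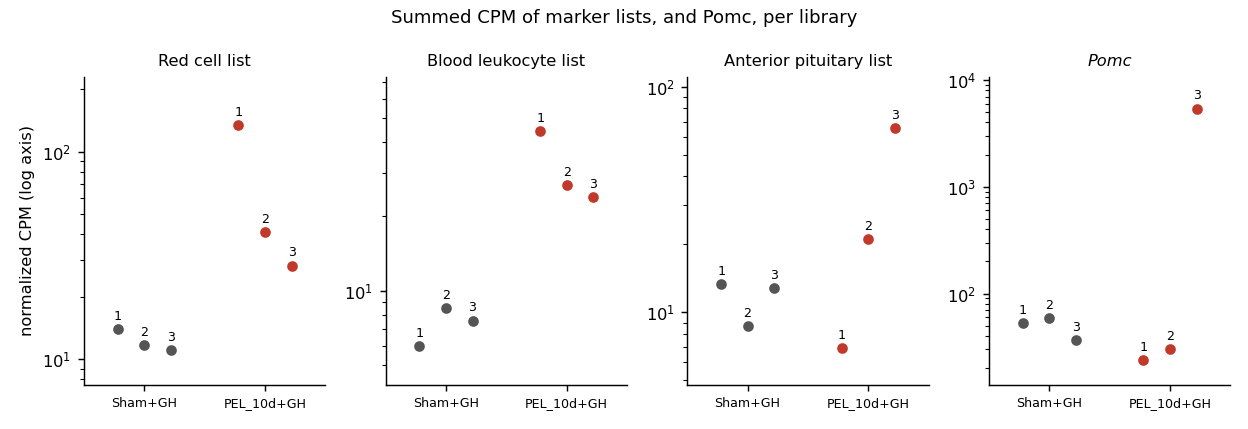
Summed normalized CPM (log axes) of the red cell, blood leukocyte and anterior pituitary lists, and the CPM of Pomc, in each library, numbered by replicate. PEL_10d+GH replicate 1 holds the highest red cell sum (135 CPM), and replicate 3 holds 5408 CPM of Pomc where the other libraries hold 23.9 to 59.1 CPM.

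Whether the lesion effect at day 10 differed between mice with and without GH was tested as an interaction, with Sham replicate 1 left out. Of 15116 genes tested 0 passed the threshold in edgeR's quasi-likelihood test. At an unadjusted p under 0.05, 676 genes had a larger and 690 a smaller log2 fold change under GH, and 47 and 49 genes passed in DESeq2. For Gpnmb the difference of the log2 fold changes was 0.17 (SE 1.66, adjusted p = 0.991, edgeR) and for Gfap 0.46 (SE 0.25, adjusted p = 0.624). Hmgcs1, with the smallest error of the genes given here, differed by -0.27 (SE 0.07, adjusted p = 0.285, edgeR), and Mbp by 0.35 (SE 0.15, adjusted p = 0.525). For Avp and Oxt the differences were 1.06 (SE 0.29) and 1.57 (SE 0.43), with an adjusted p of 0.277 for both in edgeR. The microglial gene Olfml3 (0.79, SE 0.11, adjusted p = 0.0602) and Myo5b (-2.92, SE 0.39, adjusted p = 0.0602) came close to the threshold in edgeR. A difference that misses the threshold does not show that the effects were alike. Without PEL_10d replicate 1, 11 genes passed as larger and 37 as smaller.

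Between day 3 and day 10 under GH, tested directly between the PEL_10d+GH and PEL_3d+GH libraries, 713 of 14838 genes were higher (4.81%) and 1602 lower (10.8%) at day 10. Cell division genes fell, with 22 of 22 lower (median -3.76), and Mki67 was at 105, 115 and 51.8 CPM at day 3, against 4.5, 3.71 and 4.7 CPM at day 10. Spp1, osteopontin, was at 6375, 6141 and 2925 CPM at day 3, at 91.9, 240 and 302 CPM at day 10 and at 30.7, 44.2 and 24.7 CPM in the Sham+GH group, and fell between the days by 4.62 on the log2 scale (adjusted p = 0.000755, edgeR). At both days it lay above the Sham+GH libraries. Hmox1 fell by 3.26 and Ctsd by 1.53. Of 40 lysosomal genes 27 were lower at day 10, as were 15 of 30 genes of disease-associated microglia and 11 of 18 of resting microglia. Itgax (0.03, adjusted p = 0.953, edgeR) and Clec7a (-0.35, adjusted p = 0.334, edgeR) did not pass. Myelin genes rose, with 15 of 16 higher at day 10 (median 0.66). Mbp was at 2508, 2302 and 2819 CPM at day 3 and rose by 0.74 (adjusted p = 0.00233, edgeR). Of 24 cholesterol genes 0 were higher and 0 lower (median -0.09), and of 28 interferon-stimulated genes 1 was lower (median -0.08). Of 20 neuron genes 4 were higher at day 10 and 0 lower (median 0.23). Leaving out 1 library gave 122 higher and 582 lower genes without PEL_3d+GH replicate 1, 246 and 824 without PEL_3d+GH replicate 2, 1984 and 2451 without PEL_3d+GH replicate 3, 318 and 851 without PEL_10d+GH replicate 1, and 176 and 791 without PEL_10d+GH replicate 2.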

How the data were processed

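RNA was taken from hypothalamic tissue and read by RNA sequencing with a SMARTER mRNA-Seq kit. Per the study's methods the authors aligned reads with Hisat2 and counted them per gene with featureCounts, and the processing notes name GRCm38 and mm10. The deposited table holds expected counts per gene, of which 8.22% are not whole and were rounded, and FPKM, which the authors scaled by gene length and depth and which was used here only for levels per length. Whether counting used strand is not given in the sources used here. Gene names were taken by identifier for 22219 of 22274 genes.

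Genes passing filterByExpr (minimum count 10) were tested with edgeR 4.0.16 in R 4.3.3 (TMM, quasi-likelihood, Benjamini-Hochberg, threshold 0.05) on the 6 libraries of both groups. The interaction and the comparison of days were fitted on their own groups. DESeq2 1.42.0, other filters and scalings, a common fit, a replicate block and leaving out each library were alternatives. The scripts were tested on simulated data. The SE is the log2 fold change divided by the root of the F statistic. Intervals of ratios cover counting error only.

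Named genes were 20 chosen ones, the 15 largest rises and falls with no overlap and at least 1 CPM, up to 4 members of each list with the lowest p with those that went against its direction, and 5 from each other test. The comparison, the 51 lists and the named genes were chosen with earlier results of these data known. Named after their values were seen were Apoe, C3, Ctsa, Ctsd, Ebp, Hmox1, Ifitm3, Igf1r, Lgmn, Mrc1, Oacyl, P2ry12, Pax7, Pdgfra, Pmvk, Spp1, Stat5b, Tmem119, Trem2 and Ttr. Promoter sequences are from RefSeq (GRCm38.p6). Some genes that these rules name are not reported here. The 3 replicates of each group were counted separately, and Sham replicate 1 was left out of the interaction.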

Additional observations from a re-analysis of the deposited data

Results flagged for a closer look

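Differences between the days were the results that met a rule for a closer look, since the PEL_10d+GH and PEL_3d+GH libraries were compared directly (edgeR's quasi-likelihood test, adjusted p under 0.05). In all, 713 genes were higher and 1602 lower at day 10. Arg1, the arginase of macrophages, changed by -6.84 on the log2 scale, and the cell division genes Pbk and Ccnb1 by -5.56 and -5.20. Gh changed by 7.12, with up to 6.54 CPM in a PEL_10d+GH library, and Ggnbp1, by the identifier ENSMUSG00000117819 of those that share the symbol, by 7.44. Groups of 3 libraries are too small for the test of single outlying libraries, so none was run.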

How the results depend on the processing

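Of 171 named genes 154 passed the test, and 112 of these passed under every alternative. In 1 fit over all hypothalamic groups 37 of the 154 did not pass, among them Mbp (adjusted p = 0.0585, edgeR), Slc17a6 (0.531), Cck (0.382) and Ghsr (0.247), and in that fit without Sham replicate 1 the 7 that did not were Agrp, Gal, Gh, Gm28285, Kcnj2, Nceh1 and Prlr. Higher and lower genes numbered 1606 and 351 in 1 fit over all hypothalamic groups, 967 and 47 with a change of at least 2-fold required, and 1998 to 2925 and 1118 to 2451 with 1 library left out. The interaction gave 47 and 49 genes in DESeq2, 3 and 9 with no filter on low counts, 676 and 690 at an unadjusted p, 1 lower gene in 1 fit without Sham replicate 1, and 0 to 11 and 0 to 37 with 1 library left out. Day 10 against day 3 gave 1151 higher genes in DESeq2, 431 in 1 fit and 1771 in that fit without Sham replicate 1, 2133 higher and 2801 lower at an unadjusted p, 67 and 597 with at least 2-fold, and 122 to 1984 and 582 to 2451 with 1 library left out. The cause was not tested. With 1 library left out, the log2 fold change crossed 0 in Pomc (-0.88 to 5.78), Oacyl (-0.83 to 6.19), Pax7 (-0.44 to 2.74), Cish (-0.67 to 0.33), Socs2 (-0.65 to 0.30), Sst (-0.18 to 0.04) and Ttr (-1.09 to 0.85), and of these Pomc and Oacyl had passed the test. Replicate numbers did not pair the libraries (correlation of deviations 0.00, 0.01 and -0.06 between the PEL_10d+GH and Sham+GH groups). With the numbers as a replicate block, 2545 genes were higher and 2022 lower in the lesion effect, and 189 and 920 between the days. At 15649655 to 17453164 counts per library, genes listed at under 1 CPM rest on few counts.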
